A study of Rattus norvegicus with 6 samples.

Results

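Genes of prostaglandin and leukotriene signalling were followed in the dorsal root ganglia (DRG) of rats with chronic constriction injury (CCI) of the sciatic nerve. The 10 members were fixed by symbol and matched to the 43350 gene rows of the expression table, and each was found. They are Pla2g4a, the cytosolic phospholipase that frees arachidonic acid, Ptgs1 and Ptgs2, the cyclooxygenases, Ptges and Ptgds, which make prostaglandin E2 and prostaglandin D2, Ptger3, Ptger4 and Ptgir, receptors for prostaglandin E2 and prostacyclin, and Alox5 with its partner Alox5ap, which start leukotriene synthesis. The 3 CCI samples came from male Sprague-Dawley rats in which the left sciatic nerve had been tied loosely with ligatures, and the 3 sham samples from male rats of the same strain whose nerve had been exposed and not tied. The sham rats therefore share the incision with the CCI rats and are not untouched animals. The labels list their treatment as none, and they give no age. Ipsilateral lumbar 4-6 DRG were taken on day 11 after surgery, from 1 rat per sample according to the methods, although the library protocol in the labels speaks of a pooled sample. RNA depleted of ribosomal RNA was sequenced in paired ends, and the deposited table gives a read count and an FPKM value per row and sample. Values are given in the order of rats 1, 2 and 3 of each group.

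Prostaglandins and leukotrienes are short-lived lipids made from arachidonic acid, which phospholipase A2 releases from membranes. Cyclooxygenases turn it into prostaglandin H2, from which terminal synthases make the single prostanoids, and 5-lipoxygenase turns it into leukotrienes in a separate branch. Prostaglandin E2 and prostacyclin lower the firing threshold of nociceptors through G protein-coupled receptors, and cyclooxygenases are the targets of non-steroidal anti-inflammatory drugs.

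None of the members was called changed after CCI. The study's limits are an unadjusted p below 0.05 with an absolute log2 fold change of 0.58 or more. With them, the quasi-likelihood test of edgeR called 0 of the 9 tested members, against 2.57% of the 26663 rows tested that were called higher and 1.26% that were called lower (3.83% in either direction). The remaining member, Ptgs2, averaged less than 0.5 FPKM and was not tested. Only Ptger4 had an unadjusted p below 0.05, as did 10.7% of all rows tested. DESeq2 also called 0 members and left 1 below 0.05 before adjustment, and edgeR's exact test left 0. No member reached a Benjamini-Hochberg adjusted p under 0.05, which 0.0938% of rows did. The log2 fold change was above 0 in 7 members and below 0 in 2, with a median of 0.20 against 0.01 over all rows tested and a range from -0.28 to 0.72. The 95% interval of the difference stayed inside plus or minus 0.58 for 2 members, Ptgs1 and Ptgir, and inside plus or minus 1 for 7. For Ptgds and Pla2g4a the interval held both 0 and 1. The libraries of CCI and sham rats did not overlap in 3 members, higher in 2 and lower in 1, where 8.63% and 8.70% of all rows (17.3% together) did not overlap in these directions.

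**Figure D1:**
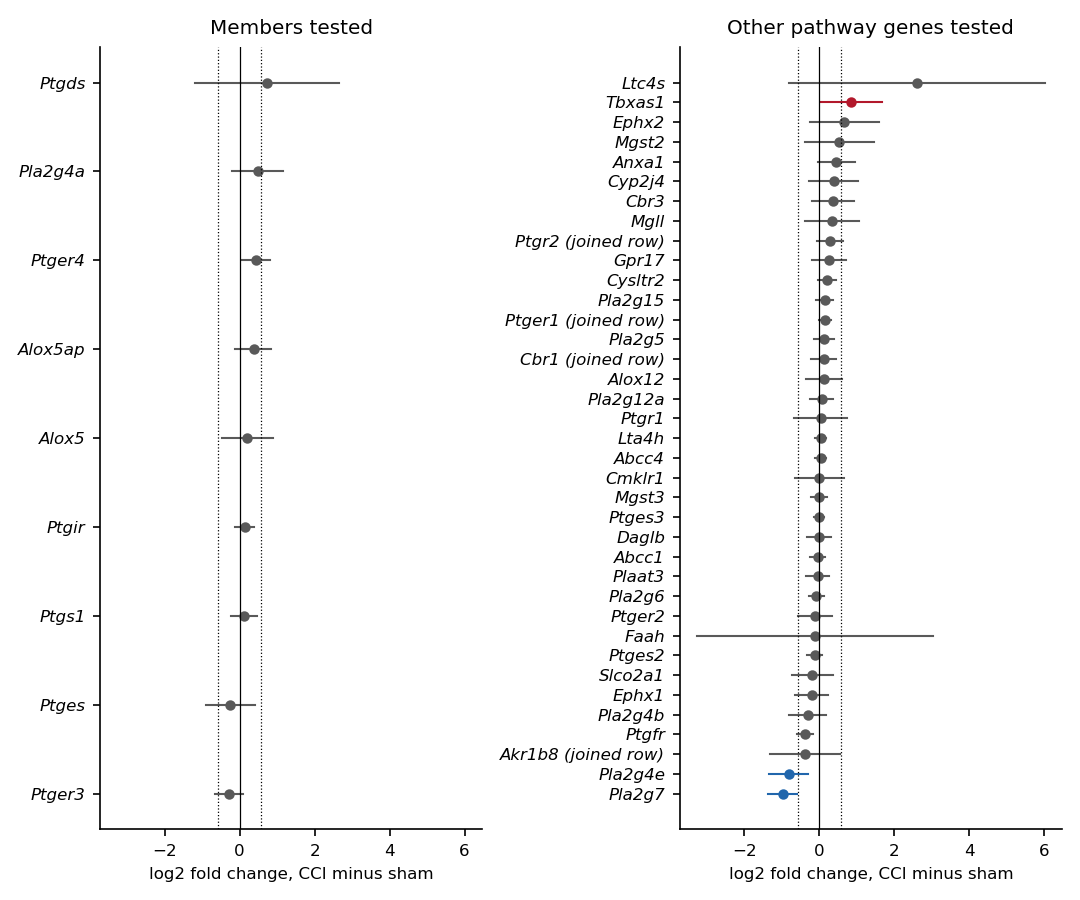
The log2 fold change (CCI minus sham, x axis) is plotted for the 9 tested members on the left and the 37 other pathway genes tested on the right. Bars are 95% intervals from edgeR's quasi-likelihood fit, dotted lines mark a log2 fold change of 0.58 in either direction, and colour marks the genes past the limits of the study, which are Tbxas1, Pla2g4e and Pla2g7 and none of the members.

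The libraries held 75423546 to 87615743 counts, so 3 counts, taken as the detection limit, stood for 0.0342 to 0.0394 CPM (counts scaled to library size). Npy, a neuropeptide induced by axon injury, was between 34.8 and 74.2 CPM in CCI rats and between 0.643 and 0.775 CPM in sham rats. The summed level of 8 sensory neuron markers was 8786 to 10122 CPM and that of 8 nociceptor markers 2173 to 2656 CPM. Both sums overlapped between the groups, and 0 of these genes were called. Log2 fold changes ran from -0.54 to 0.31 in the neuron markers (5 negative) and from -0.21 to 0.16 in the nociceptor markers (6 negative). Lower without overlap were 5 of the nociceptor markers, against 8.70% of all rows tested. Satellite glia markers summed to 2213 to 2295 CPM in CCI rats and 2093 to 2210 CPM in sham rats, so these sums just failed to overlap. Most of each sum came from Apoe (1529 to 1703 CPM), which overlapped between the groups. Of the 6 genes, 3 had a positive and 3 a negative log2 fold change, and 0 were called. Cdh19 was higher and Fabp7 lower without overlap. Myelinating Schwann cell (6529 to 9121 CPM), fibroblast (1649 to 2803 CPM), endothelium (66.6 to 106 CPM, with Cldn5 at 0) and platelet (127 to 142 CPM, nearly all from a row that joins Gp1bb with Septin5) sums overlapped between the groups. So did those of T cells (1.01 to 1.89 CPM), neutrophils (6.08 to 18.4 CPM) and mast cells (50.6 to 87.6 CPM, mostly from Kit, with Mcpt1 at 0 in every library). The macrophage sum did not overlap, at 132 to 196 CPM in CCI rats and 96.2 to 124 CPM in sham rats, and 7 of its 12 genes were called higher. Sham 1 stood apart in 6 skeletal muscle markers, which summed to 377 CPM there and to between 8.48 and 47.7 CPM in the other libraries, with 4 of the 6 called lower in CCI rats. In whole ganglia, fewer cells of a type and less RNA per cell cannot be told apart. The labels do not say more about how the 3 rats of a group were handled, so the p-values measure the spread between these samples.

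Scaled for length, the members spanned more than 2 orders of magnitude. Ptgds had the highest level, at 25.6 to 156 FPKM over the 6 libraries, followed by Ptgir at 10.8 to 14.8 FPKM. These ranges overlapped neither each other nor the next. Ptger4 (2.01 to 3.68 FPKM), Alox5ap (1.73 to 3.05 FPKM), Ptger3 (1.37 to 1.92 FPKM) and Ptgs1 (1.43 to 1.84 FPKM) formed a middle group in which each gene overlapped its neighbour. Ptges (0.654 to 1.09 FPKM), Pla2g4a (0.552 to 1.29 FPKM) and Alox5 (0.436 to 0.799 FPKM) lay below Ptgs1 and overlapped in the same way. Ptgs2 had the lowest level, at 0.125 to 0.324 FPKM, under every value of Alox5.

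**Figure D2:**
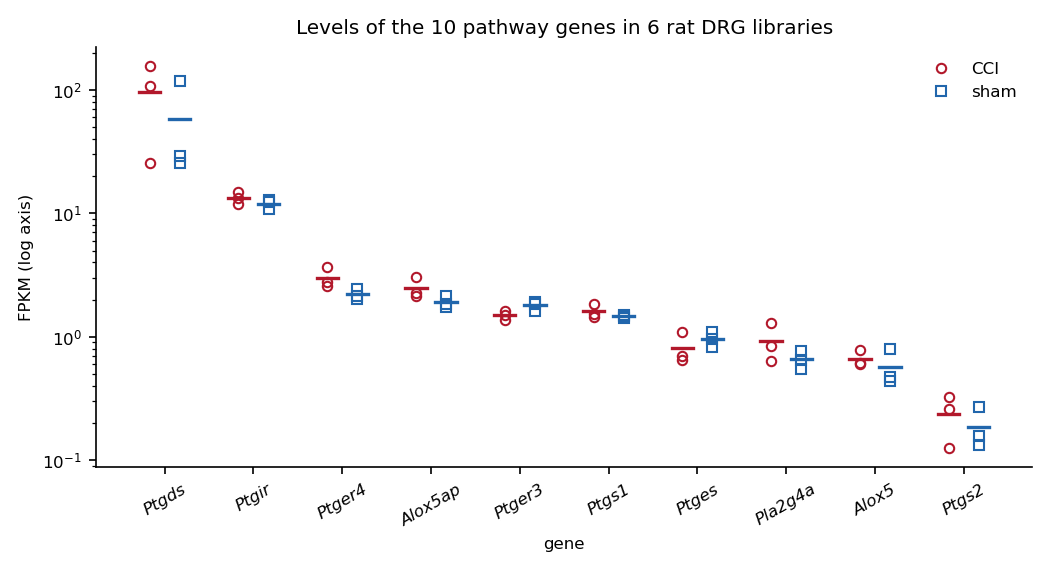
FPKM on a log axis is plotted for each of the 10 genes, ordered by their median, with circles for the 3 CCI libraries, squares for the 3 sham libraries and a bar for each group mean. Ptgds spreads from 25.6 to 156 FPKM in CCI rats and from 25.6 to 119 FPKM in sham rats, and Ptgs2 lies lowest at 0.125 to 0.324 FPKM.

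Arachidonic acid release was represented by Pla2g4a, which had the largest difference after Ptgds and was not called. Pla2g4a (chromosome 13, 66988937 to 67206693, minus strand, in the coordinates of the deposited table for the genome the study calls V101, here and for each member) counted 192, 385 and 237 reads in CCI rats and 248, 194 and 172 in sham rats. CCI 2 was the highest library, while CCI 1 lay inside the sham range. Mean levels were 3.42 ± 1.23 CPM in CCI rats and 2.45 ± 0.372 CPM in sham rats (SD, n = 3). The fitted log2 difference was 0.48 (standard error, SE, 0.29, 95% interval -0.21 to 1.17, BH-adjusted p = 0.643 from edgeR). Leaving out CCI 1 raised it to 0.69 and brought the call (unadjusted p = 0.0398, edgeR), and leaving out CCI 2 lowered it to 0.16.

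Of the cyclooxygenases, Ptgs1, the form made constitutively in many tissues, was not called and had a narrow interval. Ptgs1 (chromosome 3, 15560712 to 15582344, plus strand) measured 4.44, 4.74 and 5.61 CPM in CCI rats and 4.60, 4.45 and 4.58 CPM in sham rats. Its sham values differed by a factor of 1.03 and CCI 3 was the highest library, with the other CCI values around the sham range. CCI rats differed by a log2 value of 0.12 (SE 0.14, 95% interval -0.22 to 0.46, BH-adjusted p = 0.846 from edgeR), so an increase beyond 1.37-fold lay outside the interval. Ptgs2, the form induced in inflammation (chromosome 13, 67351087 to 67359335, plus strand), counted 49, 125 and 94 reads in CCI rats and 115, 60 and 54 in sham rats. CCI 1 was the lowest of all libraries and sham 1 the second highest, so the groups overlapped widely. Fitted without the filter, its log2 fold change was 0.32 (SE 0.44, 95% interval -0.73 to 1.36, BH-adjusted p = 0.873 from edgeR). The interval runs from 0.604-fold to 2.57-fold. Within each library Ptgs1 exceeded Ptgs2 by 4.76 to 11.5 times on the FPKM scale. The ratio was highest in CCI 1 and lowest in CCI 2, so both extremes lay within the CCI group.

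Ptges, the inducible synthase of prostaglandin E2, was among the 2 members with a negative difference. It lies on chromosome 3 (9727408 to 9738752, minus strand) and counted 74, 121 and 73 reads in CCI rats and 99, 107 and 126 in sham rats. CCI 1 and CCI 3 were below every sham library, and CCI 2 was among them. The log2 fold change was -0.25 (SE 0.28, 95% interval -0.91 to 0.42, BH-adjusted p = 0.832 from edgeR), and it was -0.51 without CCI 2. The other synthases of prostaglandin E2, from the wider list of pathway genes, were more abundant. Ptges3, a chaperone with synthase activity, had 45.0 to 48.4 FPKM and a log2 fold change of -0.02 (95% interval -0.15 to 0.11). Ptges2, a membrane-associated synthase, had 4.73 to 5.68 FPKM and a log2 fold change of -0.13 (95% interval -0.34 to 0.08), with no overlap between groups although the means were 11.7 ± 0.468 and 12.8 ± 0.679 CPM (SD, n = 3).

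Ptgds varied more between rats of a group than any other member. Ptgds makes prostaglandin D2 and is also the lipocalin known as beta-trace, abundant in the meninges (chromosome 3, 2686123 to 2689084, minus strand). It measured 22.1, 91.6 and 134 CPM in CCI rats and 102, 22.3 and 25.5 CPM in sham rats. CCI 2, CCI 3 and sham 1 were high and the others were low, so the values divide within both groups. The highest exceeded the lowest by 6.06 times among CCI rats and by 4.57 times among sham rats. The log2 fold change of 0.72 (SE 0.80, 95% interval -1.20 to 2.65, BH-adjusted p = 0.829 from edgeR) was the largest of the members and the least precise. It was 1.79 without sham 1 (unadjusted p = 0.0544, edgeR), the library that was highest in skeletal muscle markers, and 0.19 without CCI 3.

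Markers of leptomeningeal cells, the cells of the inner coverings of the nervous system, differed between the same libraries. Slc6a13, a GABA and taurine transporter of these cells, measured 1.75, 5.20 and 8.59 CPM in CCI rats and 6.29, 1.87 and 2.86 CPM in sham rats. It put the 6 libraries in the same order as Ptgds, from CCI 3 and sham 1 down to CCI 1. Of the 26662 tested rows other than Ptgds, 46 (0.173%) had this order, with Slc6a13 counted among them. Slc22a6, an organic anion transporter, followed at 0 to 0.907 CPM with a Spearman's rho of 0.99 with Ptgds over the 6 libraries. For Foxc1, a transcription factor of the meninges, rho was 0.89, for Aldh1a2, which makes retinoic acid there, and Tbx18 it was 0.83 each, and for Slc47a1 0.66. Crabp2, a retinoic acid-binding protein, ran the other way, with a rho of -0.26 and its highest value of 17.1 CPM in CCI 1. The sum of the 7 genes was 28.7 to 47.8 CPM in CCI rats and 28.1 to 46.6 CPM in sham rats, and none of the 6 tested was called, with Crabp2 at an unadjusted p of 0.0497 (edgeR). These correlations are a description over 6 libraries, which share their depth and dissection with the Ptgds values, and the part of meningeal tissue in the Ptgds values was not tested.

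**Figure D3:**
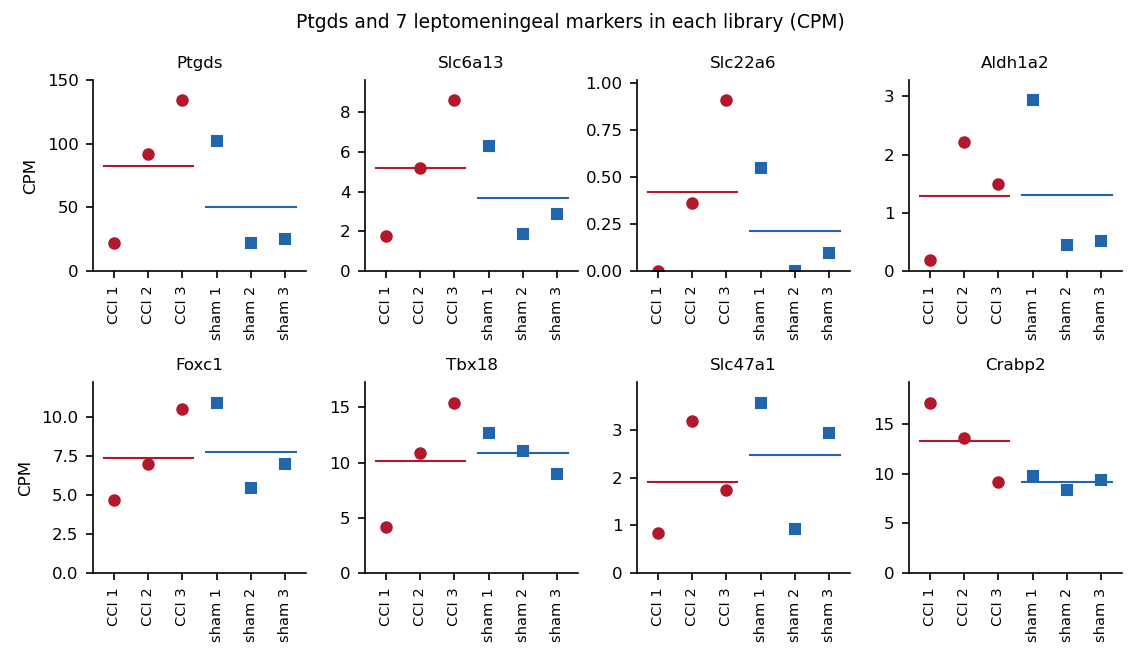
CPM of Ptgds and of 7 leptomeningeal markers (y axes, each from 0) is plotted for each of the 6 libraries, with circles for CCI, squares for sham and a line for each group mean. Ptgds and Slc6a13 are high in CCI 2, CCI 3 and sham 1 and low in the other libraries, whereas Crabp2 is highest in CCI 1.

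Among the receptors, Ptger4 had the smallest p of all members. Ptger4, the EP4 receptor for prostaglandin E2, which raises cyclic AMP (chromosome 2, 54950012 to 54964557, minus strand), measured 20.0, 15.2 and 13.9 CPM in CCI rats and 10.9, 13.5 and 11.8 CPM in sham rats. Every CCI library lay above every sham library, with CCI 3 and sham 2 close to each other. The means were 16.4 ± 3.23 CPM in CCI and 12.1 ± 1.31 CPM in sham rats (SD, n = 3), a log2 fold change of 0.44 (SE 0.16, 95% interval 0.05 to 0.82, unadjusted p = 0.0318 and BH-adjusted p = 0.407 from edgeR). This is 1.35-fold and under the size limit of the study. Over the alternatives the adjusted p ran from 0.219 with DESeq2 to 0.839 with edgeR's exact test. Without CCI 1 the log2 fold change was 0.27, and over the fits that each dropped 1 library the unadjusted p from edgeR lay between 0.0177 and 0.0956. CCI 1 was also the highest library for the injury genes Atf3 (117 CPM, against 53.8 to 67.4 CPM in CCI 2 and 3) and Npy (74.2 CPM). The macrophage marker sum ran in the order of Ptger4 within CCI rats (196, 168 and 132 CPM) but not within sham rats (96.2, 96.8 and 124 CPM). The part of injury genes or macrophages in the Ptger4 values was not tested.

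Ptger3, the EP3 receptor for prostaglandin E2, which lowers cyclic AMP in its main forms, had a negative fitted difference that was not called. Its protein-coding row (chromosome 2, 263895241 to 263979698, plus strand) counted 295, 248 and 255 reads in CCI rats and 320, 345 and 350 in sham rats. Scaled to library size, CCI 1 at 3.64 CPM and sham 1 at 3.65 CPM nearly met, and the other values were apart. The fitted log2 difference was -0.28 (SE 0.15, 95% interval -0.65 to 0.08, BH-adjusted p = 0.594 from edgeR), 0.823-fold. A further pair of rows carried the symbol Ptger3 inside this span, 1 on each strand, from 263941465 to 263945474 on the plus strand and to 263945421 on the minus strand. The plus row counted 1772, 1253 and 1849 reads in CCI rats and 0, 1774 and 1784 in sham rats. The minus row counted 1772, 0 and 1849 reads in CCI rats and 1649, 1765 and 0 in sham rats. Counts on the 2 strands were identical in CCI 1 and CCI 3 and nearly so in sham 2, and elsewhere 1 of the rows stood at 0. The methods do not state whether counting used strand, so reads of these rows cannot be given to a strand, and no fold is given for them. These inner rows had several times the counts of the protein-coding row and were not added to it.

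**Figure D4:**
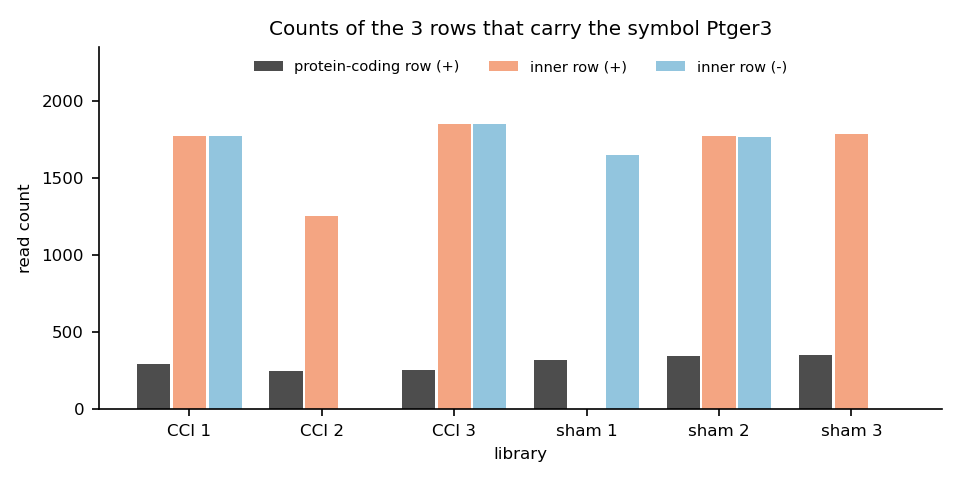
Read counts (y axis, from 0) of the protein-coding row and of the 2 inner rows that carry the symbol Ptger3 are plotted for each library. The inner rows have equal bars of 1772 in CCI 1 and 1849 in CCI 3, and 1 of them is at 0 in CCI 2, sham 1 and sham 3.

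Ptgir, the receptor for prostacyclin, was the most abundant of the receptors among the members and one of the most even (chromosome 1, 78833157 to 78837623, plus strand). It measured 56.0, 44.7 and 50.0 CPM in CCI rats and 40.9, 49.2 and 47.2 CPM in sham rats. CCI 2 lay within the sham range, and the groups overlapped. CCI rats differed by a log2 value of 0.13 (SE 0.11, 95% interval -0.13 to 0.39, BH-adjusted p = 0.745 from edgeR), so that a rise beyond 1.31-fold lay outside the interval. Within a library Ptgir exceeded Ptger4 by 4.02 to 5.74 times on the FPKM scale, and the ratio was 4.02, 4.24 and 5.16 in CCI rats and 5.39, 5.24 and 5.74 in sham rats.

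In the leukotriene branch neither 5-lipoxygenase nor its membrane partner was called. Alox5ap, which presents arachidonic acid to 5-lipoxygenase (chromosome 12, 6854920 to 6879154, minus strand), counted 191, 198 and 250 reads in CCI rats and 177, 186 and 158 in sham rats. In CPM the groups just failed to overlap. CCI 1 and sham 2 both round to 2.35, with CCI 1 the higher before rounding, and CCI 3 was the highest at 3.29. The log2 fold change was 0.37 (SE 0.20, 95% interval -0.12 to 0.85, BH-adjusted p = 0.604 from edgeR), and it was 0.20 without CCI 3. Alox5, the 5-lipoxygenase (chromosome 4, 148398892 to 148446303, minus strand), counted 138, 176 and 131 reads in CCI rats and 198, 107 and 104 in sham rats. Sham 1 was the highest library and sham 2 and 3 the lowest. Its log2 fold change of 0.20 (SE 0.28, 95% interval -0.48 to 0.88, BH-adjusted p = 0.869 from edgeR) became 0.52 without sham 1. Both genes are expressed by myeloid cells. The macrophage marker sum was 196, 168 and 132 CPM in CCI rats, so that CCI 3, the highest library for Alox5ap, was the lowest CCI library for macrophage markers. The part of macrophages in the Alox5ap values was not tested.

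The promoters of the members were read from the RefSeq table for the GRCr8 assembly, 250 bases before to 50 after each gene's start. The table held 9 of the 10, without Alox5ap. Motifs read by factors of injury, of cyclic AMP signalling and of myeloid cells were searched on both strands, and they were chosen after the expression values were known. The AP-1 motif (TGACTCA or TGAGTCA) was in 0 of the 9 windows and in 4.63% of all 33469 promoters, and the cAMP response element TGACGTCA in 0 of the 9 and 1.83% of all. The PU.1 motif GAGGAAGT, read by a factor of myeloid cells, was in 2 of the 9 and 2.42% of all. These are printed because one belongs to the member with the smallest p and the other to a cyclooxygenase with a small difference. Capitals mark the motif, 5′ to 3′ on the strand of the gene, at 166 bases before the start of Ptger4 (chr2:56073670-56073699, minus strand) and 102 bases before that of Ptgs1 (chr3:39981306-39981335, plus strand).
Ptger4: tagctacggatGAGGAAGTcggatctggtt
Ptgs1: aggctggagcaGAGGAAGTtggcggttggc
A match is a description of these letters and does not show binding, and the 2 genes with it had log2 fold changes of 0.44 and 0.12.

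The rest of the pathway was covered by 61 further genes, of which 57 had a row, 37 were tested and 20 lay under the filter. Of the 37, 4 shared a row with a neighbouring gene and cannot be read alone, among them Ptger1, joined with Gipc1. At the limits of the study 1 was called higher, Tbxas1, and 2 lower, Pla2g7 and Pla2g4e, against 2.57% and 1.26% of all rows tested. Counts this small are not read as a result about the pathway. After adjustment edgeR's quasi-likelihood test left none, against 3 with DESeq2 and 1 with edgeR's exact test. With Ptgfr, 4 of the 37 were below 0.05 before adjustment, a share near the 10.7% of all rows. The median log2 fold change of the 37 was 0.03.

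The largest called difference was that of Pla2g7, the secreted hydrolase of platelet-activating factor and of oxidised phospholipids. It measured 17.7, 20.8 and 19.9 CPM in CCI rats and 35.2, 48.2 and 31.8 CPM in sham rats. All CCI libraries were below all sham libraries, with a wide gap. The fitted log2 difference was -0.98 (SE 0.16, 95% interval -1.38 to -0.59, unadjusted p = 0.000732 and BH-adjusted p = 0.114 from edgeR), or 0.507-fold, and it was -1.10 to -0.78 when single libraries were dropped. The adjusted p over the alternatives ran from 3.33e-06 with DESeq2 to 0.264. Pla2g4e, a calcium-dependent enzyme that transfers acyl chains to make N-acyl phospholipids, had 1.87, 3.08 and 2.60 CPM in CCI rats and 4.17, 4.29 and 4.86 CPM in sham rats. These groups did not overlap either. Its log2 fold change was -0.82 (SE 0.22, unadjusted p = 0.00774 and BH-adjusted p = 0.263 from edgeR), and the call was lost with limma on log2(FPKM + 0.1) (unadjusted p = 0.0683). Both were called lower at the limits of the study, while the arachidonate-releasing Pla2g4a had a positive difference that was not called. The contrast between these genes was not tested.

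Tbxas1, thromboxane A synthase, which platelets and macrophages express, was called higher. It measured 3.31, 2.98 and 1.95 CPM in CCI rats and 1.54, 0.959 and 2.07 CPM in sham rats. Sham 3 lay above CCI 3, so the groups overlapped. CCI rats differed by a log2 value of 0.85 (SE 0.34, unadjusted p = 0.0446 and BH-adjusted p = 0.447 from edgeR). The call was lost without CCI 1 (0.69), CCI 2 (0.79), sham 1 (0.86) or sham 2 (0.61), and with the replicate number as a block (0.89, unadjusted p = 0.0830, edgeR). The macrophage marker sum ran in the same order within CCI rats, 196, 168 and 132 CPM, and was also highest in sham 3 among sham rats, at 124 CPM against 96.2 and 96.8 CPM. The part of macrophages in the Tbxas1 values was not tested.

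**Figure D5:**
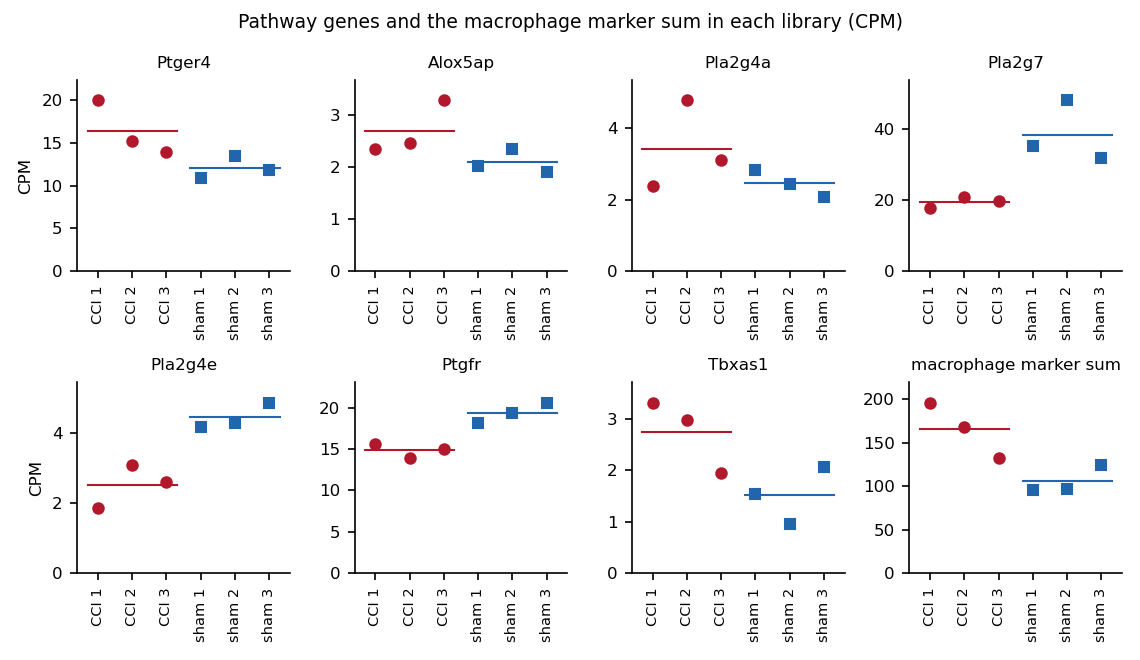
CPM (y axes, each from 0) of 3 members, of 4 other pathway genes and of the summed macrophage markers is plotted for each of the 6 libraries, with circles for CCI, squares for sham and a line for each group mean. Pla2g7 lies at 17.7 to 20.8 CPM in CCI rats and at 31.8 to 48.2 CPM in sham rats, whereas Tbxas1 overlaps at CCI 3 and sham 3.

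Of the other receptors, Ptgfr, the receptor for prostaglandin F2 alpha, had the smallest p. It measured 15.6, 13.9 and 15.0 CPM in CCI rats and 18.1, 19.4 and 20.6 CPM in sham rats, without overlap. The log2 fold change of -0.38 (SE 0.09, 95% interval -0.59 to -0.18, unadjusted p = 0.00366 and BH-adjusted p = 0.208 from edgeR) did not reach the size limit. Ptger2, the second receptor that raises cyclic AMP with prostaglandin E2, had 0.978 to 1.41 FPKM and a log2 fold change of -0.11 (95% interval -0.56 to 0.34). Tbxa2r, the thromboxane receptor, lay under the filter with 46 to 112 counts and overlapping groups. The genes of the prostacyclin synthase Ptgis and of the prostaglandin D2 receptor Ptgdr were not analysed here, nor were Ptgr3 and Ggt5. Hpgds, the synthase of prostaglandin D2 in blood cells, had 16 to 19 counts in CCI 1 and 2, 0 in CCI 3 and 22 to 33 in sham rats, under the filter.

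Downstream of Alox5, the enzyme of leukotriene B4 was even across the groups and its receptor was near the detection limit. Lta4h, the hydrolase that makes leukotriene B4, had 12.9 to 13.8 FPKM and a log2 fold change of 0.03 (95% interval -0.12 to 0.17, BH-adjusted p = 0.925 from edgeR). Ltb4r, the receptor, had 0 to 4 counts per library. Ltc4s, which makes leukotriene C4, had 0.320, 0.447 and 0.763 CPM in CCI rats and 0, 0.252 and 0 CPM in sham rats. The groups did not overlap, but it was not called (unadjusted p = 0.113, edgeR). It was called higher with limma and without sham 2, the only sham library above 0. Cysltr1, a receptor for cysteinyl leukotrienes, lay under the filter, at 1.01, 1.53 and 1.33 CPM in CCI rats and 0.820, 0.808 and 0.606 CPM in sham rats. Its CCI libraries were above its sham libraries, and without the filter it passed the limits of the study with a log2 fold change of 0.79 (SE 0.28, unadjusted p = 0.0268 and BH-adjusted p = 0.470 from edgeR). Cysltr2, the other such receptor, was more abundant at 5.17 to 7.04 FPKM and had a log2 fold change of 0.20 (95% interval -0.04 to 0.44, unadjusted p = 0.0871 from edgeR).

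By role, 11 phospholipases and related genes were tested, among them Pla2g7 and Pla2g4e, and 6 terminal synthases and related genes, among them Tbxas1. The difference between roles was not tested, and the calls are too few to compare roles. None of the 5 tested genes of prostanoid transport and inactivation, of the 3 prostanoid receptors, of the 6 genes of leukotriene synthesis and other lipoxygenases, of the 3 receptors for leukotrienes and other lipid mediators or of the 3 epoxyeicosanoid enzymes was called in either direction. Abcc4, a transporter that exports prostaglandin E2, was among the most even, at 5.44 to 5.88 FPKM with a log2 fold change of 0.03 (95% interval -0.11 to 0.18).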

How the data were processed

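Per the methods, filtered reads were aligned by the authors to the rat genome V101 with HISAT, and StringTie assembled transcripts and estimated their expression. The submitters' processing notes name HISAT2 2.0 and StringTie 1.3.0. The deposited counts are whole reads per gene row and sample without normalization, and the deposited FPKM values are normalised for transcript length and depth by the authors, who list rows with a count of 0 at a small constant.

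If a symbol had more than 1 row, protein-coding rows took precedence and the most counted of them was used. Rows averaging 0.5 FPKM or more (26663) were tested with edgeR 4.0.16's quasi-likelihood test (TMM factors, trended prior, 3 CCI against 3 sham samples) in R 4.3.3, and p-values were adjusted by Benjamini-Hochberg over all of them. A call uses the study's limits (p below 0.05 unadjusted, absolute log2 fold change 0.58 or more). Standard errors are the absolute log2 fold change divided by the square root of F. CPM values use the same factors, and levels are compared between genes only in FPKM. An exact permutation test of 3 against 3 cannot go below a p of 0.1. The tests were tried on simulated counts. Alternatives were median-ratio factors, DESeq2 1.42.0, edgeR's exact test, limma 3.58.1 on log2(FPKM + 0.1), other filters, a replicate block and leaving out each library. Within groups, libraries differed beyond sampling noise (chi-square per degree of freedom 51.4 to 74.7). The members, the 61 other pathway genes and the marker lists were chosen with earlier results of these data known. Named are all members, every other pathway gene past the limits, and a set list of further synthases and receptors by their values. Ptgfr's rank, Abcc4, Cysltr2, Mgll, Ephx2 and Anxa1 were singled out after their values were seen.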

Additional observations from a re-analysis of the deposited data

How the results depend on the processing

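The members' 9 differences were refitted under 13 alternatives and none changed sign. None of these 114 values came to an adjusted p under 0.219, and 1 passed the limits of the study, that of Pla2g4a without CCI 1, so the number of members called higher was 0 to 1 with each library left out, and the number called lower was 0 to 0. Among other pathway genes, 1 was called higher by the test as reported, 2 with no filter (Cysltr1 added), 0 at 1 FPKM or more on average, 0 with the replicate block and 0 to 2 with each library left out. With limma the 1 called higher was Ltc4s and not Tbxas1. The number called lower was 2, 1 with limma on log2(FPKM + 0.1), 1 with a mean FPKM of at least 1, and 2 to 2 with each library left out. Of all rows, 25 were below 0.05 after adjustment with edgeR's quasi-likelihood fit, 751 in DESeq2, 237 in edgeR's exact test, 0 with the replicate block and 6 to 61 with each library left out. Same-numbered CCI and sham libraries did not deviate together (r of -0.01, -0.02 and -0.05), and no library correlated best with its own number. From so few libraries, these r values cannot show whether same-numbered rats were handled together. The labels do not state it. Ptges, Pla2g4a and Alox5 could not be fitted at a mean FPKM of at least 1, which they do not reach. Counts of Ltc4s, Hpgds and Ltb4r were low, and their standard errors were above 1 on the log2 scale.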

Other observations

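Mgll and Ephx2 each had 1 library well above the others, and they and Anxa1 were named after their values were seen. Mgll, the lipase that turns the endocannabinoid 2-arachidonoylglycerol into arachidonic acid, measured 110 CPM in CCI 3 and 46.5 to 59.5 CPM in the other libraries. Ephx2, soluble epoxide hydrolase, which inactivates epoxyeicosanoids, measured 5.14 CPM in CCI 2 and 1.55 to 3.04 CPM elsewhere. Anxa1, an inhibitor of phospholipase A2 action, measured 80.5, 69.7 and 63.6 CPM in CCI 1, 2 and 3 and 57.5, 61.9 and 36.7 CPM in sham 1, 2 and 3, so its groups did not overlap. The log2 fold changes of these genes were 0.34, 0.67 and 0.45, and none was called with all libraries (unadjusted p of 0.303, 0.125 and 0.0621 in edgeR's quasi-likelihood test). Ephx2 was called higher without CCI 1 and Anxa1 without sham 2.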
